A study of Mus musculus with 6 samples.

Results

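Lungs of mice labelled hCD2-T-bet tg/tg were compared with lungs of wild-type (WT) mice, gene by gene, over 4 of the 6 arrays of the series. All mice were of the C57BL/6 strain. The tg/tg mice carried the hCD2-T-bet transgene on both chromosomes and the WT mice did not carry it; no treatment or age is stated for either genotype, and 2 arrays were made of each. Total RNA of lung was labelled with the dye Cy3 and hybridised to single-colour Agilent mouse arrays. Of 16358 genes with a symbol on the array, 12762 entered the comparison because the scanner marked a probe of theirs as well above background on 2 or more of the 4 arrays.

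T-bet, the product of Tbx21, is a transcription factor of T helper 1 cells, which it makes competent to produce interferon-gamma. The human CD2 regulatory sequences named in the transgene are used to drive expression mainly in T cells. Which cells of the lung carried the Tbx21 signal is not shown by these arrays. The labels connect these mice with pulmonary alveolar proteinosis, in which alveoli fill with surfactant that alveolar macrophages do not clear. A lung sample mixes alveolar and airway epithelium, endothelium, smooth muscle, mesothelium and blood-derived cells, and in mice it also holds heart-type muscle around the pulmonary veins and variable amounts of attached fat.

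The 4 arrays lay on 1 slide and shared a scan; WT arrays were at positions 1 and 2 and tg/tg arrays at positions 3 and 4, so position on the slide and genotype cannot be told apart. Levels are given as log2 signal relative to the 75th percentile of the same array, and the percentiles lay between 861 and 1085 intensity units. Across genes, which are not independent replicates, the WT arrays correlated at r = 0.998, the tg/tg arrays at 0.997, and arrays of different genotype at 0.917. The median absolute log2 difference was 0.0445 between the WT arrays, 0.0668 between the tg/tg arrays and 0.420 to 0.433 between genotypes. Whether a genotype's arrays represent separate animals is not stated in the labels, so the p-values rest on array-to-array spread that could be purely technical.

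Lung identity was visible in both genotypes. Sftpc, the surfactant protein C gene, saturated its probe and gives no fold. Linear signals were summed over marker genes and expressed in multiples of the 75th percentile. Of 12 alveolar and airway epithelial markers 2 rose and 8 fell (16.7% and 66.7%, against 33.7% and 41.2% of all genes). The club cell gene Cyp2f2 fell by 1.99 and the surfactant protein D gene Sftpd rose by 0.91 on the log2 scale. The other rise, in Sftpa1, was 0.22, and another Sftpa1 probe was called lower, by 0.19. Without Sftpc, the other 11 summed to 1184 and 1158 in WT and 938 and 867 in tg/tg. The sum of 9 T cell markers was 6.65 and 6.46 in WT and 30.2 and 32 in tg/tg, and that of 9 monocyte and macrophage markers 96.3 and 95.9 against 163 and 167. Of these 9, 7 rose and 2 fell (77.8% and 22.2%, against 33.7% and 41.2% of all genes). The 2 were the alveolar macrophage receptor gene Siglecf (by 2.07) and Chil3, a chitinase-like gene of macrophages (by 0.63 on the log2 scale). Chil3 made up most of the WT sum, at a log2 level of 6.35 on each WT array and 5.73 and 5.71 in tg/tg. The median log2 difference of the 9 markers was 2.25. The sum of 8 neutrophil markers was 52.3 and 51.4 against 63.6 and 61.8, and that of 5 B cell markers 5.20 and 5.18 against 3.23 and 3.19. S100a9 made up most of the neutrophil sum and rose 1.12-fold, whereas Mpo, Ngp and Camp rose 12.2-fold, 6.82-fold and 5.38-fold. All 8 neutrophil markers rose, with a median log2 difference of 0.80. The sum of 8 heart muscle markers was 216 and 214 in WT and 12.4 and 12.8 in tg/tg, and that of 6 fat markers 33.3 and 32.4 against 3.53 and 3.54, with the adipocyte hormone gene Retn not well above background in tg/tg. The 6 skeletal muscle markers summed to 4.53 and 4.38 in WT and 0.978 and 0.940 in tg/tg, with Ckm not well above background in tg/tg. The 3 red blood cell markers summed to 364 and 359 against 197 and 201, and the 3 tested thymus markers to 3.08 and 3.06 against 7.29 and 7.51. The thymus genes Rag1, Rag2, Ptcra and Psmb11 were not well above background on enough arrays to be tested.

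The transgene's gene was measured as a check of the labels. The level of Tbx21 was -0.81 on each WT array and 3.13 and 3.15 on the tg/tg arrays. The genotypes did not overlap, and Tbx21 was 15.5-fold higher in tg/tg (log2 difference 3.95, SE 0.0344, limma with Benjamini-Hochberg adjusted p = 1.41e-05). Whether its probe reads the transgene's transcript besides the endogenous one was not tested.

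Most of the measured transcriptome differed between the genotypes, mainly by small amounts. Of 12762 genes, 4298 (33.7%) were higher and 5261 (41.2%) lower in tg/tg at a limma Benjamini-Hochberg adjusted p under 0.05, or 74.9% in all. The median called difference was 1.5-fold among higher genes and 1.52-fold among lower genes, and 67.6% and 70.2% of the called genes lay under 2-fold. A test of whether the difference exceeded 2-fold (limma treat, adjusted p under 0.05) called 1102 genes (8.64%) higher and 1089 (8.53%) lower, 17.2% together. With normexp background correction treat called 720 genes lower. The tail was longer upwards: 268 called genes rose and 184 fell by over 8-fold, and 49 rose and 19 fell by over 32-fold. The median difference of all genes was -0.06 on the log2 scale. The arrays of the 2 genotypes did not overlap for 11304 genes (88.6%), with tg/tg higher for 40.2% and lower for 48.3%, so a lack of overlap was the usual state of a gene in this comparison.

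**Figure D1:**
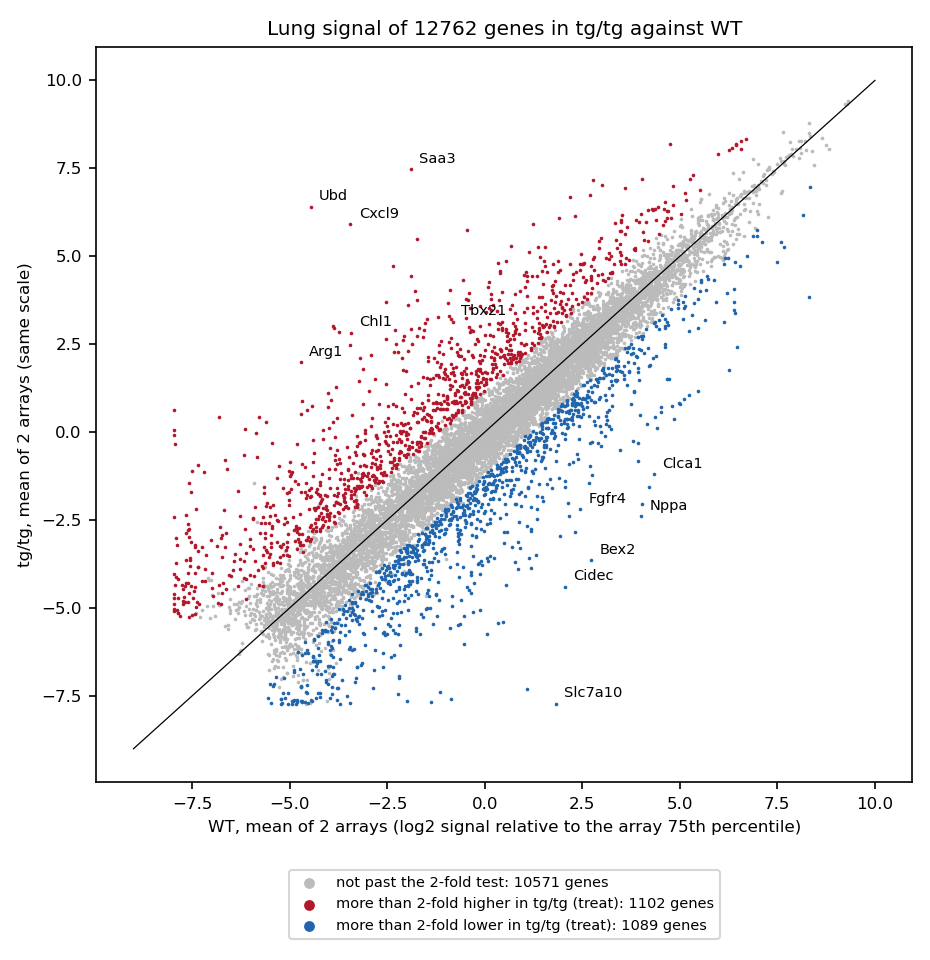
Mean log2 signal of 12762 genes in WT (horizontal axis) and tg/tg (vertical axis), each the mean of 2 arrays relative to the array's 75th percentile; the line marks equal signal. Red points are the 1102 genes more than 2-fold higher and blue points the 1089 genes more than 2-fold lower in tg/tg by limma treat, and the named genes lie far from the line.

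The size of the differences depended on the signal. In the lowest tertile of mean signal, the standard deviation of the log2 difference was 1.46 and treat called 468 genes higher and 544 lower. In the middle tertile it was 1.08, with 340 higher and 310 lower. In the brightest tertile it was 0.92, with 294 higher and 235 lower. The share of genes called in either direction by the ordinary test was much the same at all signals, 31.3% to 35.2% higher and 41.0% to 41.5% lower.

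The largest rises among genes measured on all 4 arrays were in inflammatory, acute-phase and myeloid genes, with a few genes of other kinds among them. Ubd encodes FAT10, a ubiquitin-like modifier induced by interferon-gamma and tumour necrosis factor. Its level was -4.47 and -4.44 in WT and 6.45 and 6.36 in tg/tg, 1868-fold higher. Arg1 encodes arginase 1, an arginine-degrading enzyme of macrophages. Its level was -4.78 and -4.64 in WT and 1.96 and 2.02 in tg/tg, a 104-fold rise. Ly6f, a gene of the Ly6 family of surface proteins, stood at -3.80 and -4.00 in WT and 3.03 on each tg/tg array, 122-fold higher. Clec4e encodes Mincle, a myeloid lectin receptor for mycobacterial and damaged-cell ligands. It rose 55.2-fold, from -1.79 and -1.77 to 4.04 and 3.98. All of these had limma adjusted p-values of 1.41e-05 to 1.63e-05. The largest rises and falls were picked by size among called genes without overlap, so low p-values and separate genotypes follow from the choice. The other 11 of the 15 largest rises were in the serum amyloid genes Saa3 and Saa1, the chemokine genes Cxcl9, Cxcl10, Ccl2, Ccl3, Ccl4 and Ccl8, the cytokine gene Ifng, the scavenger receptor gene Msr1 and Chl1. Their log2 differences lay between 5.92 (Msr1) and 9.37 (Saa3).

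Chl1 encodes a neural cell adhesion molecule of the L1 family and is best known from neurons. Its level was -3.39 and -3.48 in WT and 2.80 and 2.86 in tg/tg, 77.0-fold higher (log2 difference 6.27, SE 0.0528, limma adjusted p = 1.41e-05). Other genes known for nervous tissue were found among those detected in tg/tg alone. Pdyn, the gene of the opioid precursor prodynorphin, was at -0.06 and -0.01 in tg/tg and not well above background in WT, and so at least 49.0-fold higher. Npy, which encodes neuropeptide Y, was at -0.05 and -0.09 in tg/tg and at least 47.9-fold higher by the same bound.

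**Figure D2:**
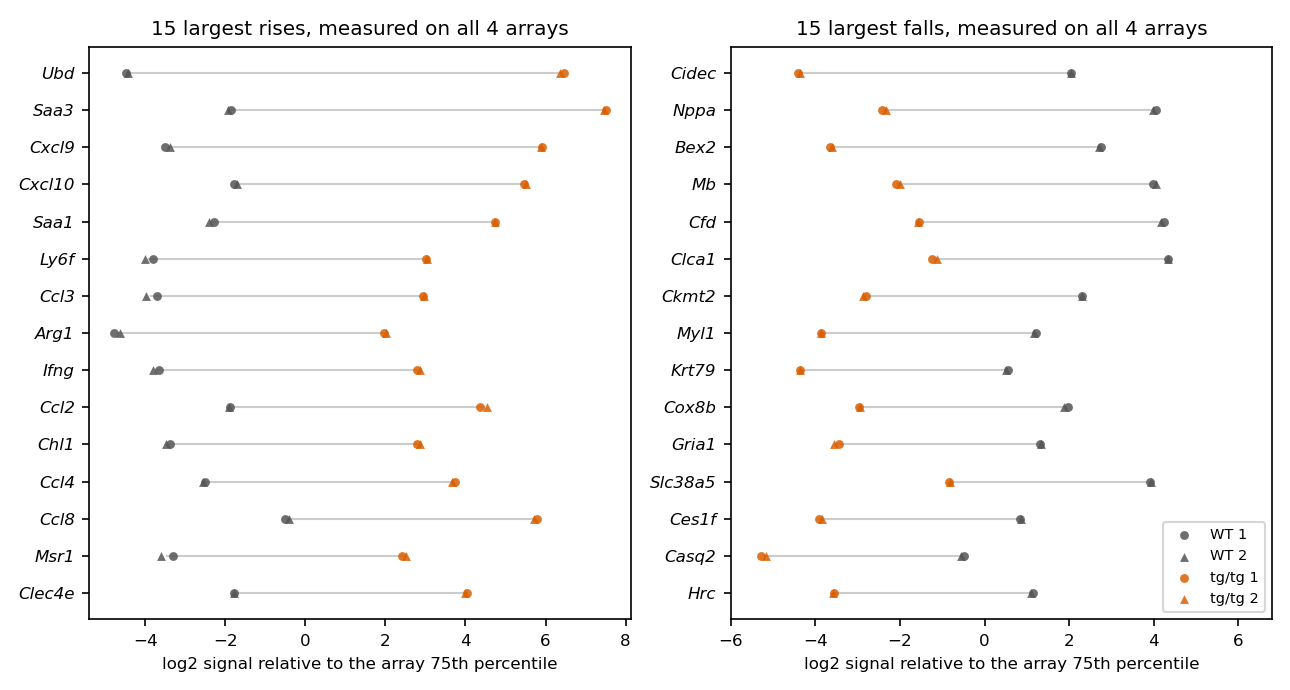
Log2 signal relative to the array's 75th percentile on each WT array (grey) and each tg/tg array (orange) for the 15 largest rises (left) and 15 largest falls (right) among genes measured on all 4 arrays. Circles are replicate 1 and triangles replicate 2. The 30 genes were picked for a large called difference without overlap, so the wide distance between genotypes follows from the choice.

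A promoter window from RefSeq (assembly GRCm38.p6), reaching from 250 bases before to 50 bases after a transcription start, was matched by symbol for 10175 of the 12762 genes, 13022 windows in all. The letters TTTCNNTTTC, the core of the interferon-stimulated response element (ISRE), were searched on both strands and occurred in 412 windows (3.16%). They occurred in 90 of 1044 windows (8.62%) of genes more than 2-fold higher and in 21 of 1058 (1.98%) of genes more than 2-fold lower. The gamma-activated site letters TTCNNNGAA occurred in 6.99% of all windows, in 8.62% of windows of the higher genes and 7.75% of the lower genes, and 54 windows held both motifs. Of 11 windows of the 15 largest rises, 3 held the ISRE letters, and these 3 are shown. They belong to an acute-phase gene, a chemokine gene and the adhesion molecule gene. Capitals mark the match, on either strand, and each stretch is written in the direction of the gene.
Saa3: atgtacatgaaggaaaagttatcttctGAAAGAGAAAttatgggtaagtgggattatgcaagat
Cxcl10: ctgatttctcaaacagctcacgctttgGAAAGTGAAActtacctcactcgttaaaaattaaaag
Chl1: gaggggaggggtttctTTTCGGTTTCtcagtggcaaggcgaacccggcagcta
The Saa3 stretch is at chr7:46715765-46715828, minus strand, with the match centred 120 bases before the start. The Cxcl10 stretch is at chr5:92349066-92349129, minus strand, with the match 208 bases before the start. The Chl1 stretch is at chr6:103510626-103510678, plus strand, with the match 229 bases before the start. A match of letters is a description of the window and says nothing of binding in these lungs.

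The largest falls included genes of fat, of striated muscle and of other kinds, whose tissue of origin these arrays do not show. Bex2, a small X-linked gene best known from brain, stood at 2.76 and 2.71 in WT and -3.66 and -3.61 in tg/tg, 82.7-fold lower (log2 difference -6.37, SE 0.0406, limma adjusted p = 1.41e-05). Clca1, of the family of chloride channel accessory proteins, was at 4.34 on each WT array and at -1.24 and -1.14 in tg/tg, 46.0-fold lower. Gria1, which encodes a subunit of AMPA-type glutamate receptors, was at 1.32 on each WT array and at -3.44 and -3.57 in tg/tg, 28.3-fold lower. In each of these the WT arrays were the high ones, with no overlap, which the choice of genes required. Slc38a5, an amino acid transporter gene, fell 27.1-fold, from 3.92 and 3.94 to -0.84 and -0.81. Krt79, a keratin gene, fell 29.8-fold and Ces1f, a carboxylesterase gene, 26.5-fold.

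Of the 15 largest falls, 7 were in genes known for heart or skeletal muscle: Nppa (atrial natriuretic peptide, 84.1-fold), Mb (myoglobin, 66.6-fold), Ckmt2 (mitochondrial creatine kinase of muscle, 35.4-fold), Myl1 (a myosin light chain, 33.3-fold), Cox8b (a cytochrome oxidase subunit of muscle and brown fat, 29.6-fold), Casq2 (26.0-fold) and Hrc (25.9-fold), both of the calcium store of muscle. Cidec (a lipid droplet protein, 86.6-fold) and Cfd (adipsin, 54.7-fold) are adipocyte genes. The 8 tested heart muscle markers and the 6 tested fat markers fell in every case, and the median log2 difference was -4.12 for heart muscle and -5.09 for fat (-4.88 with a bound for the gene below background). How much of a sample's muscle and fat came with the tissue taken, and its part in these falls, was not tested.

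Genes at or below background in one genotype widen the picture at the dim end. In tg/tg 182 genes (1.43%) were well above background on both arrays and on neither WT array. In WT 307 genes (2.41%) were detected on both arrays and on neither tg/tg array. For such genes only a lower bound of the fold can be given, from the lowest signal counted as above background on the other arrays. The median bound was 2.71-fold over the 179 genes of the first set that were called and had a bound. Over the 271 such genes of the second set it was 2.03-fold. Among genes detected in tg/tg alone, the highest bounds belonged to Gzmk, a granule protease gene of cytotoxic T cells (at least 78.2-fold), Gpr84, a receptor for medium-chain fatty acids on myeloid cells (at least 68.2-fold), the acute-phase genes Orm2 (at least 66.3-fold) and Orm1 (at least 53.7-fold), and Cxcl5 (at least 52.3-fold). Orm1 and Orm2 are near-identical copies, which probes may not tell apart. Among genes detected in WT alone, they belonged to Slc7a10, an amino acid exchanger gene of neurons and adipocytes (at least 151-fold), Fabp1, a fatty acid binding protein gene (at least 90.5-fold), Car3, a carbonic anhydrase gene of muscle and fat (at least 53.8-fold), the muscle creatine kinase gene Ckm (at least 29.4-fold) and Slc47a1, which encodes the organic cation exporter MATE1 (at least 26.4-fold).

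Gene lists are described next by counts of called members, to be read against the 33.7% of all genes called higher and 41.2% called lower. Counts of members that treat called more than 2-fold different are to be read against 8.64% of all genes higher and 8.53% lower. Genes of the blood and lymph vessels were lower in tg/tg. Of 40 endothelial genes, 37 fell and 3 rose (92.5% lower, against 41.2% of all genes), 20 of the falls exceeded 2-fold by treat, and the median log2 difference was -1.25. In bulk tissue, fewer endothelial cells and less RNA per endothelial cell cannot be told apart, here and for each cell type that follows. Ednrb, the endothelin B receptor gene, was at 0.55 and 0.57 in WT and -2.83 and -2.85 in tg/tg, 10.6-fold lower (SE 0.0352, limma adjusted p = 1.41e-05). Aplnr, the apelin receptor gene, fell 7.10-fold, from 0.78 and 0.77 to -2.07 and -2.03. Car4, a carbonic anhydrase gene of capillary endothelium, fell 5.22-fold, from 1.87 and 1.81 to -0.55 and -0.54. In all 3 genes, picked as the largest falls of the list, the replicate arrays lay close together and the genotypes far apart. The members that rose were Procr, the endothelial protein C receptor gene (6.14-fold, from 0.80 and 0.75 to 3.38 and 3.40), Sox17 (1.53-fold) and Gja4 (log2 difference 0.50). The decrease was thus not shared by every gene that marks arterial endothelium.

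Of 7 lymphatic vessel genes 6 fell, with a median of -0.32, and none rose. Vegfd, a growth factor for lymphatic vessels, fell 8.06-fold, from 3.20 and 3.19 in WT to 0.18 and 0.19 in tg/tg, and Lyve1, the hyaluronan receptor of lymphatic endothelium that some macrophages also carry, fell 6.39-fold. The remaining 4 that fell, among them the receptor gene Flt4, fell by 0.24 to 0.62 on the log2 scale. Smooth muscle and pericyte genes fell in 15 of 21 cases and rose in 3 (median -1.01). Cnn1, which encodes the contractile protein calponin, fell 4.30-fold, from 4.56 and 4.66 to 2.47 and 2.54. Rgs5, a pericyte regulator of G protein signalling, rose 5.66-fold, from -2.45 and -2.49 to -0.10 and 0.16. The pericyte genes Kcnj8 and Abcc9 rose too, by 0.64 and 0.36 on the log2 scale. Of other pericyte genes, Pdgfrb and Higd1b did not pass, and Cspg4 fell by 0.50.

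The airway's ciliated cell genes fell as a block. All 26 tested motile cilium genes were lower in tg/tg, 16 of them by more than 2-fold under treat, with a median of -1.5. Motile cilia are beating organelles whose axoneme is driven by dynein arms, and Foxj1 is the master regulator of their assembly. Tppp3, which encodes a tubulin-binding protein, was at 4.64 and 4.6 in WT and 2.34 and 2.48 in tg/tg, 4.62-fold lower (SE 0.0629, limma adjusted p = 6.55e-05). Dnali1, an axonemal dynein light chain gene, fell 3.83-fold, from 1.80 and 1.76 to -0.21 and -0.11. Hydin, whose product sits in the central pair of the axoneme, fell 3.67-fold. Each tg/tg array lay below each WT array in all of these, which were picked as the largest falls of the list. Foxj1 itself fell less, 1.86-fold, from 2.71 and 2.62 to 1.75 and 1.79. The intraflagellar transport genes Ift88, Ift81, Ift172 and Ift57, which primary cilia of other cells use too, fell by 0.17 to 0.87 on the log2 scale.

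RFX factors, which act with Foxj1 in ciliated cells, bind X-box elements. The letters GTTGCCA, an X-box half-site and not the whole element, were searched on both strands. They occurred in 7 of 27 windows (25.9%) of the motile cilium genes against 509 of 13022 (3.91%) of all windows. Of the windows of genes more than 2-fold lower, 64 of 1058 (6.05%) held them. The 3 members with the largest fall and a match are shown, with the letters in capitals and in the direction of the gene.
Hydin: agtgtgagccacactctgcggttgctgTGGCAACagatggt
Pifo: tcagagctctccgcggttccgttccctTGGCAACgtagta
Tekt1: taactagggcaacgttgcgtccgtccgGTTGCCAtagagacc
These stretches end at the annotated start, and the match is centred 10 bases before it in Hydin (chr8:110266936-110266976, plus strand), 10 in Pifo (chr3:106001498-106001537, minus strand) and 12 in Tekt1 (chr11:72361883-72361924, minus strand). Pifo and Tekt1 fell by 1.58 and 1.55 on the log2 scale.

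Mesothelium, the sheet of cells that covers the lung, also gave lower signal. Of 9 mesothelial genes 8 fell, each by more than 2-fold under treat, with a median of -2.05. Gpm6a, a membrane glycoprotein gene, fell 7.26-fold, from 1.39 on each WT array to -1.49 and -1.45 in tg/tg (SE 0.0371, limma adjusted p = 1.80e-05). Upk3b, a uroplakin gene, fell 6.58-fold, with the WT arrays at 0.89 and 1.34 and the tg/tg arrays at -1.62 and -1.58. Its WT arrays lay further apart than those of most genes, without reaching the tg/tg range. Aldh1a2, which encodes a retinoic acid synthesising enzyme, fell by 2.55 on the log2 scale. Msln, which encodes mesothelin, was the exception and rose 1.35-fold, from 4.23 on each WT array to 4.76 and 4.58.

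Transcription factors that pattern the developing lung were lower more often than higher. Of the 29 genes of this list 22 fell and 2 rose (75.9% lower, against 41.2% of all genes, median -0.56). The list also holds Hhip, which is not a transcription factor gene and fell by 0.56 on the log2 scale. Tcf21, a factor of lung fibroblast progenitors, fell 6.87-fold, from 2.94 and 2.99 to 0.13 and 0.23. Hoxa5 and Hoxb5 fell by 1.62 and 1.60 on the log2 scale, and the mesenchymal factor Foxf1 by 1.59. Among epithelial factors, Sox2, a factor of the conducting airways, fell by 1.26, Nkx2-1, which is required for lung identity, fell 1.14-fold (limma adjusted p = 0.0268), and Gata6 did not pass (limma adjusted p = 0.997). Id2, an inhibitor of basic helix-loop-helix factors that lymphocytes also use, rose 3.29-fold, from 2.24 and 2.26 to 3.93 and 4.01.

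**Figure D3:**
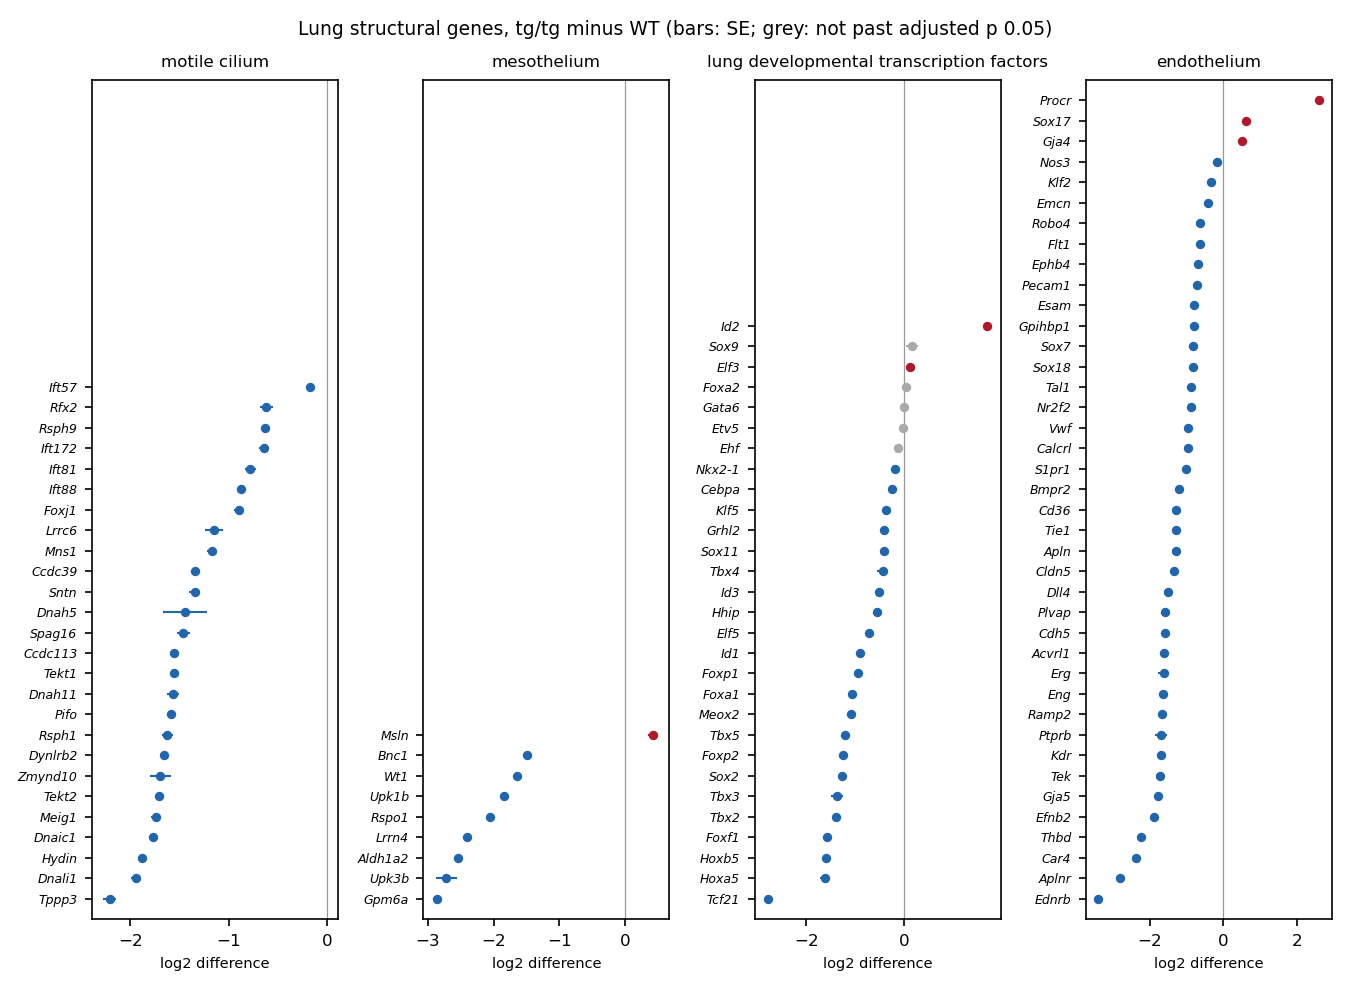
Log2 difference (tg/tg minus WT, horizontal axes) of each tested motile cilium, mesothelium, lung developmental transcription factor and endothelium gene, with its standard error as a bar. Blue genes were lower, red genes higher and grey genes not past an adjusted p of 0.05 in limma; all 26 ciliary genes and 37 of 40 endothelial genes are blue.

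Matrix and junction genes moved in both directions. Of 37 collagen, elastic fibre and other matrix genes 17 rose and 16 fell, and the sign of their median, which lay near 0, changed under quantile normalization, under centring on the median, and without WT replicate 2 or tg/tg replicate 2. Tnxb, which encodes tenascin X, was at 2.71 and 2.64 in WT and -1.42 and -1.48 in tg/tg, 17.5-fold lower (SE 0.0486, limma adjusted p = 1.65e-05). The small proteoglycan gene Ogn and the fibulin gene Fbln1 each fell by 3.16 on the log2 scale. Spp1, which encodes osteopontin, a secreted phosphoprotein of macrophages and matrix, rose 8.96-fold, from 4.03 and 4.04 to 7.16 and 7.25. Tnc, which encodes tenascin C, rose 4.52-fold, with WT arrays at -1.84 and -2.51 and tg/tg arrays at -0.07 and 0.08, and Col5a2 rose by 1.68 on the log2 scale. The tenascin paralogues Tnxb and Tnc thus moved in opposite directions.

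Among 28 claudin, connexin, cadherin and other junction genes 9 rose (32.1%, against 33.7% of all genes) and 12 fell (42.9%, against 41.2%), with a median of -0.12. These shares are near those of all genes. Cldn4, which encodes a claudin of the tight junction, rose 15-fold, from -4.87 and -5.13 to -1.11 and -1.08. Cldn2 was not well above background in WT and was at least 3.98-fold higher in tg/tg. Cldn15 fell by 2.26 on the log2 scale, while Cldn1 and the N-cadherin gene Cdh2 were detected in WT alone and were at least 3.05-fold and 2.81-fold lower. Cldn18, the main claudin of alveolar epithelium, differed by -0.16 and did not pass (limma adjusted p = 0.137).

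Neuronal and neuroendocrine genes fell in 11 of 17 cases and rose in 4 (median -0.77). Bex1, well above background on both WT arrays and 1 of 2 tg/tg arrays, fell with Bex2, by 4.92 on the log2 scale, and Stmn2, a neuronal tubulin-binding protein gene, by 2.76. Calca, which encodes calcitonin gene-related peptide, rose by 1.92 and the tubulin gene Tubb3 by 1.36. The neuroendocrine cell marker Chga differed by 0.34 and did not pass. Of 7 Schwann cell genes 4 fell, and Egr2, a factor of myelination that macrophages also express, rose by 1.90. Imprinted genes, many of which act in fetal growth, fell in 10 of 16 cases and rose in 2 (median -0.77). Igf2 fell 3.55-fold, from 0.32 and 0.28 to -1.57 and -1.49, Cdkn1c fell by 1.5 on the log2 scale, and Nnat rose 2.72-fold.

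**Figure D4:**
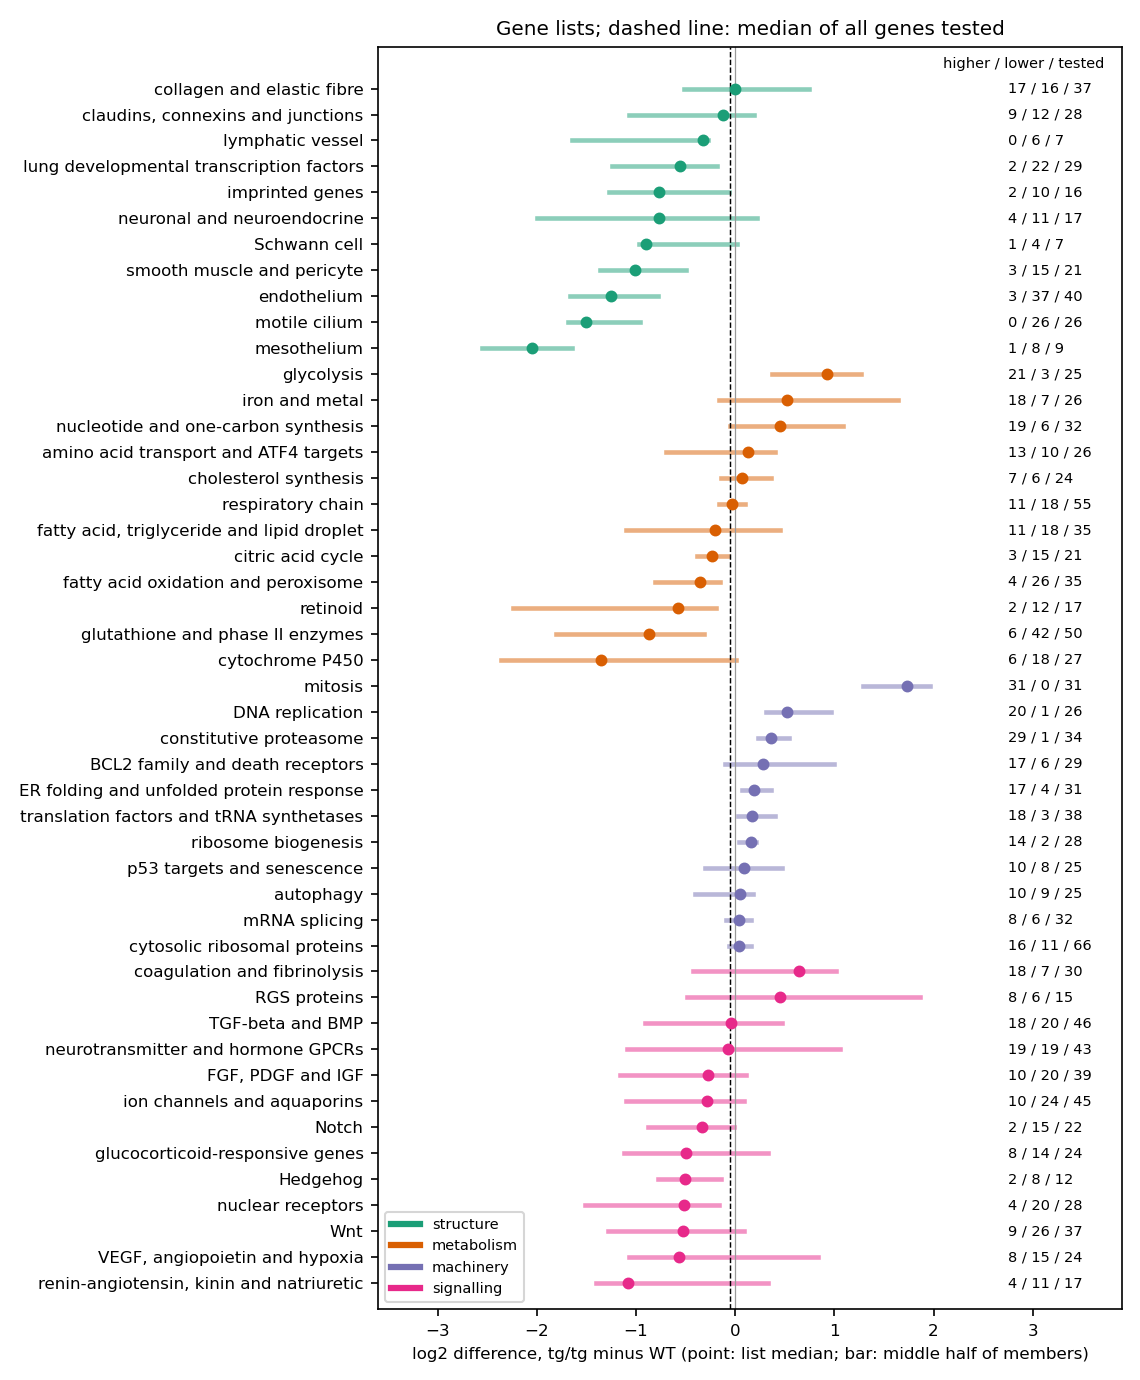
Median log2 difference (tg/tg minus WT) of each gene list (points), with bars from the lower to the upper quartile of its tested members; the dashed line is the median of all 12762 genes, -0.06. Numbers at the right give the members called higher, called lower and tested; the mitosis list (31 of 31 higher) lies furthest to the right and the mesothelium list (8 of 9 lower) furthest to the left among the lists drawn, which leave out the cell marker lists.

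Glycolytic genes were higher in tg/tg. Glycolysis splits glucose into pyruvate, and its genes come in muscle, brain, liver and leukocyte isoforms. Of 25 genes tested 21 rose and 3 fell (84.0% higher, against 33.7% of all genes), 9 of the rises exceeded 2-fold by treat, and the median log2 difference was 0.93. Hk3, the hexokinase of leukocytes, was at -1.99 and -2.18 in WT and 2.70 and 2.54 in tg/tg, 26.1-fold higher (SE 0.0933, limma adjusted p = 3.37e-05). Eno1 rose 4.43-fold, from -2.14 and -2.07 to -0.02 and 0.10, and Slc16a3, the lactate exporter MCT4, rose 4.39-fold, from 2.04 and 2.07 to 4.14 and 4.24. The glucose transporter gene Slc2a1 rose by 1.72 on the log2 scale. The members that fell were Pfkm, the phosphofructokinase of muscle (by 1.56), Ldhb, the lactate dehydrogenase subunit of heart (by 1.38), and Pdk4, which restrains pyruvate oxidation (by 1.29). Beside them stand the heart muscle marker sums of 216 and 214 in WT against 12.4 and 12.8 in tg/tg. Beside the rises stand the macrophage marker sums of 96.3 and 95.9 against 163 and 167, of which Chil3 made up most in WT. The 9 macrophage markers had a median log2 difference of 2.25. The part of these cells in the glycolytic differences was not tested.

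The hypoxia response element letters ACGTGC, searched on both strands, occurred in 7 of 37 windows (18.9%) of the glycolytic genes and in 993 of 13022 (7.63%) of all windows. They occurred in 51 of 1044 windows (4.88%) of genes more than 2-fold higher, in 68 of 1058 (6.43%) of genes more than 2-fold lower and in 5 of 26 (19.2%) of the mitosis genes described further on, a share like that of the glycolytic genes. The 3 risen members with the largest difference and a match are shown, with the letters in capitals. They cover import of glucose, a glycolytic step and export of lactate.
Slc16a3: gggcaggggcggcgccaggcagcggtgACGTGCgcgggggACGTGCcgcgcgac
Slc2a1: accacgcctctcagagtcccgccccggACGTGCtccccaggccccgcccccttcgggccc
Pgam1: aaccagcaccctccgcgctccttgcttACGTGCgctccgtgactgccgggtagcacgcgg
The Slc16a3 stretch (chr11:120949013-120949066, plus strand) holds 2 matches, the Slc2a1 stretch (chr4:119108682-119108741, plus strand) holds a match 33 bases before the start, and the Pgam1 stretch (chr19:41911730-41911789, plus strand) a match 111 bases before it. Pgam1, which encodes phosphoglycerate mutase, rose by 1.32 on the log2 scale.

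Oxygen sensing and vessel growth genes were mixed. Of 24 genes of the vascular endothelial growth factor, angiopoietin and hypoxia list 8 rose and 15 fell (median -0.56). Ankrd37, a hypoxia-induced gene, was at 0.20 and 0.23 in WT and 3.56 and 3.66 in tg/tg, 10.5-fold higher (SE 0.0502, limma adjusted p = 2.17e-05). Egln3, an oxygen-sensing hydroxylase gene, rose 8.75-fold, with WT arrays at -4.94 and -4.23 and tg/tg arrays at -1.46 and -1.44. Hif1a, the gene of the widely expressed hypoxia-inducible factor subunit, rose 2.95-fold, whereas Epas1, its endothelial paralogue, fell 2.79-fold, from -1.37 and -1.31 to -2.86 and -2.78. Angpt1, a vessel-stabilising ligand, fell by 2.30 on the log2 scale, its receptor Tek by 1.73 and the growth factor receptor Kdr by 1.71, beside the lower endothelial genes.

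Oxidative metabolism went the other way or barely moved. Of 21 citric acid cycle genes 15 fell and 3 rose (median -0.23), none by more than 2-fold under treat, and the largest fall was in Idh2, a mitochondrial isocitrate dehydrogenase (1.95-fold). Of 55 respiratory chain genes 18 fell, 11 rose and 26 were not called, with a median of -0.03, which is near that of all genes. The differences of all 55 lay between -0.56 (Ndufa5) and 0.43 (Sdhd). Fatty acid oxidation and peroxisome genes fell in 26 of 35 cases and rose in 4 (median -0.35). Cpt1b, the muscle form of carnitine palmitoyltransferase, fell 3.58-fold, from -1.10 and -1.01 to -2.81 and -2.98. The catalase gene Cat fell by 1.61 and Ppara, a nuclear receptor that induces fatty acid oxidation, by 1.60 on the log2 scale. Heart muscle marker sums of 216 and 214 in WT against 12.4 and 12.8 in tg/tg stand beside these falls, and their part was not tested.

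Lipid droplet and fatty acid genes fell in 18 of 35 cases (51.4%, against 41.2% of all genes) and rose in 11 (31.4%, against 33.7%). These shares lay near the background, but the large differences leaned downwards. By treat, 8 of the 35 fell and 1 rose by more than 2-fold, against 8.53% and 8.64% of all genes. The members differed among themselves. Fabp3, the heart-type fatty acid binding protein gene, was at 3.91 and 3.92 in WT and -0.31 and -0.32 in tg/tg, 18.7-fold lower. Plin1, the adipocyte lipid droplet gene, fell 15.8-fold, from -1.23 and -1.24 to -5.03 and -5.39, and was well above background on 1 of the 2 tg/tg arrays. Plin2, the droplet protein of macrophages and most other cells, rose instead, 2.59-fold, from 4.08 and 4.10 to 5.49 and 5.42. The summed fat markers, 33.3 and 32.4 in WT and 3.53 and 3.54 in tg/tg, stand beside these falls. So do the summed heart muscle markers, 216 and 214 in WT and 12.4 and 12.8 in tg/tg. The part of fat and muscle was not tested. Cholesterol synthesis genes showed no common direction: of 24 genes 7 rose and 6 fell (median 0.07).

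**Figure D5:**
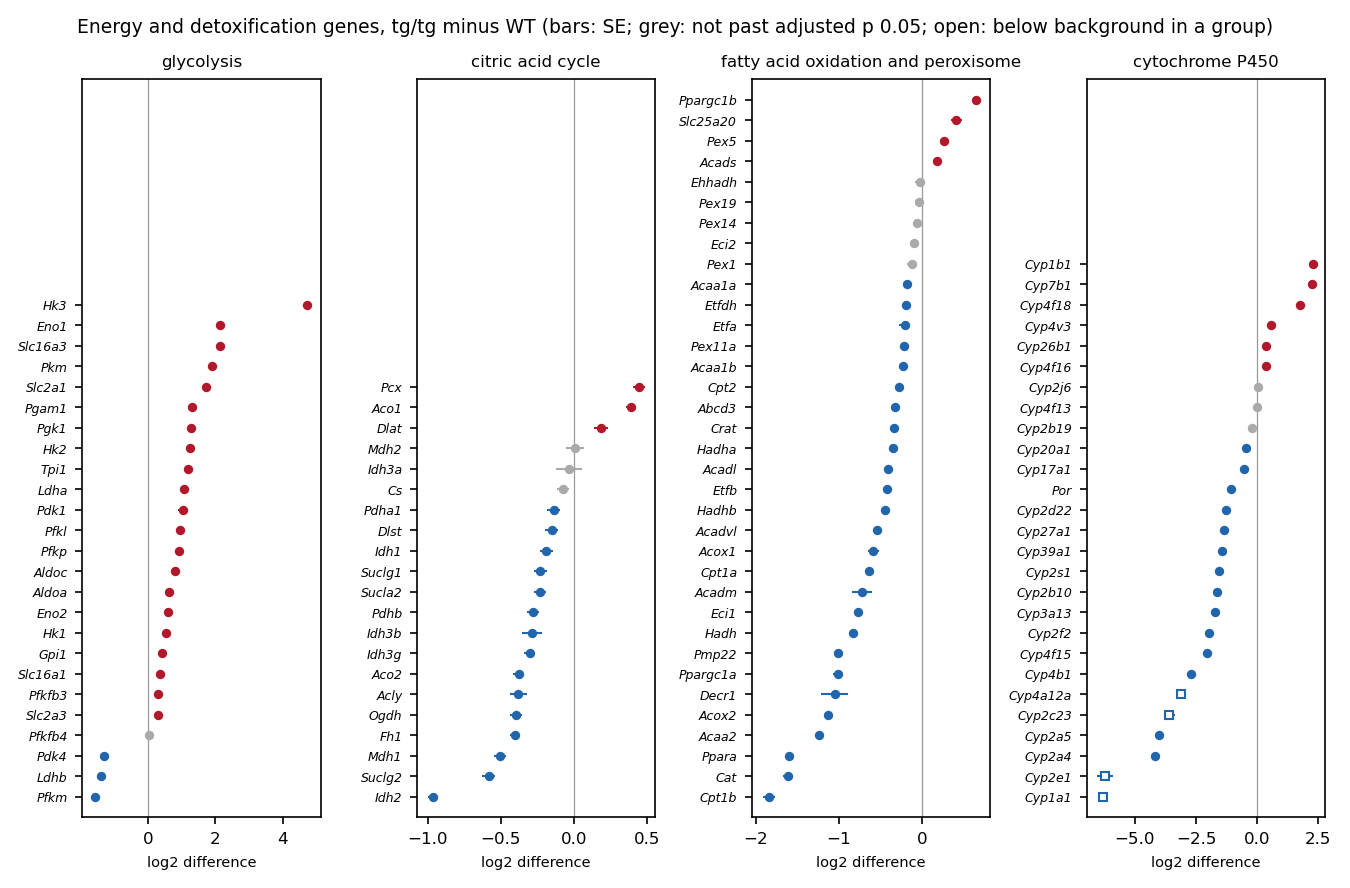
Log2 difference (tg/tg minus WT, horizontal axes) of each tested gene of glycolysis, the citric acid cycle, fatty acid oxidation and cytochrome P450, with its standard error as a bar. Red genes were higher, blue lower and grey not past an adjusted p of 0.05 in limma, and open squares mark genes not well above background in a genotype, whose plotted value is no bound. Most of the glycolysis panel is red (21 of 25) and most of the other panels are blue.

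Enzymes that metabolise foreign compounds were lower. The lung's club cells are rich in cytochrome P450 enzymes, and glutathione transferases and other phase II enzymes act on their products. Of 27 cytochrome P450 genes 18 fell and 6 rose, 15 of the falls by more than 2-fold under treat (median -1.35). Cyp2a4 was at 4.98 and 5.0 in WT and 0.76 and 0.87 in tg/tg, 18-fold lower (SE 0.0525, limma adjusted p = 1.76e-05), though its probe may also read the near-identical Cyp2a5, which fell by 4.03 on the log2 scale. Cyp1a1 and Cyp2e1 were detected in WT alone and were at least 16.4-fold and 19.2-fold lower. The rises were led by Cyp1b1 (4.87-fold, from -2.07 and -2.11 to 0.18 and 0.21), Cyp7b1, an oxysterol hydroxylase gene (4.78-fold, from 0.75 and 0.79 to 3.05 and 2.99), and Cyp4f18, a leukotriene-metabolising enzyme of myeloid cells (log2 difference 1.74). Cyp1a1 and Cyp1b1, which are both induced by the aryl hydrocarbon receptor, moved in opposite directions.

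Of 50 glutathione and phase II genes 42 fell and 6 rose (median -0.87, or -0.80 with bounds in place of fitted values for genes below background). Gsta2 fell 15-fold, from -0.09 and -0.16 to -4.07 and -3.99, and Gsta1, a close copy, by 3.45 on the log2 scale. The rises were in stress-induced genes: Slc7a11, the cystine importer (at least 31.0-fold), Hmox1, the heme-degrading oxygenase (8.22-fold, from 1.77 and 1.73 to 4.77 and 4.81), Sod2, the mitochondrial superoxide dismutase (2.59-fold), Txnrd1, Srxn1 and Gpx1. Retinoid genes fell in 12 of 17 cases and rose in 2 (median -0.58). Lrat, which stores vitamin A as retinyl ester, was at 0.07 and 0.06 in WT and -3.6 and -3.58 in tg/tg, 12.6-fold lower, and the plasma retinol carrier gene Rbp4 fell by 2.63 on the log2 scale.

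Iron and metal genes rose in 18 of 26 cases and fell in 7 (median 0.52). Lcn2, whose product binds bacterial iron carriers, was at -0.55 and -0.58 in WT and 4.30 and 4.36 in tg/tg, 29.8-fold higher (SE 0.0430, limma adjusted p = 1.41e-05). Slc11a1, the phagosomal metal exporter NRAMP1, rose 15.2-fold, from -0.37 and -0.40 to 3.55 and 3.53, and the zinc and iron importer gene Slc39a14 rose by 2.35 on the log2 scale. Hamp, which encodes the iron hormone hepcidin, fell 28.1-fold, from -0.67 and -0.60 to -5.63 and -5.27, and was well above background on 1 of the 2 tg/tg arrays. Hjv, whose product induces hepcidin, was detected in WT alone and was at least 8.56-fold lower. Hjv is known from skeletal and heart muscle, and hepcidin is also made in heart. The heart muscle marker sums given above fell with both, and their part was not tested.

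Amino acid transporters moved far in both directions. Slc7a10 was at least 151-fold lower, and Slc7a11 at least 31.0-fold and Slc7a8 22-fold higher in tg/tg, Slc7a8 moving from -1.53 and -1.56 to 2.85 and 2.97. All of them form heteromeric transporters of the same family. The shared heavy chain gene Slc3a2, needed for several members of the family, rose by 0.13 on the log2 scale. In the list of 26 transport and ATF4 target genes, 13 rose and 10 fell (median 0.13), and Atf4 itself was not called.

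Cell division genes rose without exception among those tested. All 31 mitosis genes were higher in tg/tg, 24 by more than 2-fold under treat, with a median of 1.74, or 1.63 with bounds. Ccnb1, which encodes the mitotic cyclin B1, was at -4.34 and -4.32 in WT and -1.75 and -1.62 in tg/tg, 6.24-fold higher (SE 0.0593, limma adjusted p = 4.22e-05). Kif2c, a kinesin of chromosome segregation, rose 5.08-fold, from -5.39 and -5.58 to -3.14 and -3.13, and was well above background on 1 of the 2 WT arrays, and Cenpe was at least 2.48-fold higher. Of 26 DNA replication genes 20 rose and Pold1 alone fell, by 0.17 on the log2 scale (median 0.53); the differences were smaller than those of the mitosis list, with Pole highest at 1.33. Nucleotide and one-carbon synthesis genes rose in 19 of 32 cases and fell in 6 (median 0.46), led by the thymidine kinase gene Tk1 (4.05-fold), the CTP synthase gene Ctps and the mitochondrial folate enzyme gene Mthfd2 (3.19-fold), with the uridine phosphorylase gene Upp1 at least 2.85-fold higher. The T cell marker sums of 6.65 and 6.46 in WT against 30.2 and 32 in tg/tg stand beside these rises. Whether more cells divided, and which, was not tested.

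The cell cycle homology region (CHR) letters TTTGAA, searched on both strands, occurred in 17 of 26 windows (65.4%) of the mitosis genes and in 1614 of 13022 (12.4%) of all windows. They occurred in 186 of 1044 windows (17.8%) of genes more than 2-fold higher and 141 of 1058 (13.3%) of genes more than 2-fold lower. No window of the mitosis list held the gamma-activated site letters and 1 of 26 held the ISRE letters. The 3 members with the largest rise whose window held the letters before the start are shown, with the letters in capitals.
Kif2c: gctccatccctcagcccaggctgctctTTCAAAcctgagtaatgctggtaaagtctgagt
Cdk1: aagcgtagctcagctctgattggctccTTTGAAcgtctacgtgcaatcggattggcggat
Top2a: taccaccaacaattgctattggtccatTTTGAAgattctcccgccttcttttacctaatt
They lie at chr4:117178843-117178902, chr10:69352951-69353010 and chr11:99024336-99024395, all on the minus strand, with the letters centred 100, 68 and 176 bases before the start. Cdk1, the kinase that triggers mitosis, rose 4.46-fold, from -3.14 and -3.05 to -0.90 and -0.97, and the topoisomerase gene Top2a rose 4.44-fold.

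The machinery that makes and destroys proteins moved by small amounts. Of 34 constitutive proteasome genes 29 rose and 1 fell, none by more than 2-fold under treat (median 0.36), with Psmb2 highest (1.87-fold, from 0.17 and 0.18 to 1.03 and 1.13). Of 38 translation factor and tRNA synthetase genes 18 rose and 3 fell (median 0.17), and the tryptophanyl-tRNA synthetase gene Wars, which interferon-gamma induces, stood apart with a 4.02-fold rise. Endoplasmic reticulum folding genes rose in 17 of 31 cases and fell in 4 (median 0.19), and Sdf2l1 rose 2.29-fold while Herpud1 fell by 1.01 on the log2 scale. Ribosome biogenesis genes rose in 14 of 28 cases and fell in 2 (median 0.16), with Myc, the factor that drives growth, 4.30-fold higher. Cytosolic ribosomal protein genes moved little: of 66 genes 16 rose, 11 fell and 39 were not called, and none passed treat. Their median of 0.04 turned negative under quantile normalization. Autophagy genes (10 higher and 9 lower of 25) and splicing genes (8 and 6 of 32) showed no prevailing direction.

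Cell death genes rose more often than they fell, with 17 of 29 higher (58.6%, against 33.7% of all genes) and 6 lower (median 0.28). Fasl, the death ligand of cytotoxic T cells, was at -4.35 and -4.43 in WT and -0.26 and -0.18 in tg/tg, 18-fold higher (SE 0.0509, limma adjusted p = 1.71e-05). The survival gene Bcl2a1b, which has near-identical copies, rose by 3.11 on the log2 scale and Bid, which links death receptors to mitochondria, rose 3.43-fold. Fas, the receptor gene of Fasl, rose by 0.28. Among 25 p53 target and senescence genes, 10 rose and 8 fell. The cyclin-dependent kinase inhibitor genes Cdkn1a (3.98-fold) and Cdkn2a (at least 2.57-fold) rose, while Rrm2b and Perp, which p53 also induces, fell by 1.36 and 1.18.

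Activin and BMP signalling showed its largest changes in secreted ligands and their antagonists. Activins and BMPs are ligands of the TGF-beta family that signal through SMAD proteins, and follistatin and gremlins bind and block them outside the cell. Inhba, which encodes the activin A subunit, was at -1.87 and -1.90 in WT and 2.92 on each tg/tg array, 27.9-fold higher (SE 0.0353, limma adjusted p = 1.41e-05). Its antagonist follistatin, encoded by Fst, rose 20.6-fold, from -1.94 and -1.79 to 2.56 and 2.46. The BMP antagonist gene Grem1 was not well above background in WT and at -0.98 and -1.10 in tg/tg, at least 24.5-fold higher. The ligand genes Bmp6 and Bmp3 fell by 2.59 and 2.12 on the log2 scale and Ltbp4, a latent TGF-beta binding protein gene, by 2.99. Over the whole list of 46 genes, 18 rose and 20 fell, and the median of -0.04 was near that of all genes.

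Wnt pathway genes fell in 26 of 37 cases (70.3%, against 41.2% of all genes) and rose in 9 (median -0.52). Among ligands, Wnt2, which the lung mesenchyme makes, fell 8.79-fold, from 2.27 and 2.28 to -0.90 and -0.82, and Wnt10a was detected in tg/tg alone, at -1.17 and -1.11, at least 22.8-fold higher. Among secreted inhibitors, Wif1 fell 6.81-fold, from -1.82 and -1.68 to -4.51 and -4.53, and Frzb was at least 7.51-fold higher and Sfrp1 rose by 1.80 on the log2 scale. Lgr6, an R-spondin receptor gene, was detected in WT alone and at least 2-fold lower. Notch genes fell in 15 of 22 cases and rose in 2 (median -0.34): the endothelial ligand gene Dll4 fell 2.86-fold and the endothelial receptor gene Notch4 2.78-fold. Hedgehog genes fell in 8 of 12 cases and rose in 2 (median -0.50), led by the signal transducer Smo (2.32-fold).

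Growth factor genes of the FGF, PDGF and IGF families fell in 20 of 39 cases (51.3%, against 41.2% of all genes) and rose in 10 (median -0.28). The share lower was not far from the background, but the large differences leaned downwards. By treat, 10 of the 39 fell and 3 rose by more than 2-fold, against 8.53% and 8.64% of all genes. The receptor gene Fgfr4 was at 2.44 and 2.46 in WT and -2.21 and -2.18 in tg/tg, 24.9-fold lower (SE 0.0369, limma adjusted p = 1.41e-05). Igfbp2 and Igfbp6, which encode IGF-binding proteins, fell 17.9-fold (from 5.10 and 5.12 to 0.93 and 0.97) and by 3.92 on the log2 scale. The family member Fgf12 (at least 12.5-fold lower) and the ligand genes Fgf1 and Fgf10 fell. Igf1 rose 2.58-fold, Pdgfc 3.86-fold and Ereg, an EGF receptor ligand gene, at least 1.41-fold. Igf1 and Igf2, the ligands of the same receptor, moved in opposite directions.

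Hormone and circulation genes were mostly lower. Nuclear receptor genes fell in 20 of 28 cases and rose in 4 (median -0.51), among them the oestrogen receptor gene Esr2 (at least 3.39-fold), detected in WT alone. The clock repressor gene Nr1d1 fell by 1.86; the time of day at which lungs were taken is not stated. Of 24 glucocorticoid-responsive genes 14 fell and 8 rose: Klf15 fell 4.76-fold and Tsc22d3 (GILZ) 2.91-fold, whereas the metallothionein gene Mt2 rose by 2.16 on the log2 scale. Renin-angiotensin, kinin and natriuretic peptide genes fell in 11 of 17 cases and rose in 4 (median -1.08). Npr3, the clearance receptor for natriuretic peptides, fell 23.4-fold, beside the far lower Nppa, from 2.15 and 2.19 to -2.32 and -2.44, and the kininogen gene Kng1 was at least 2.44-fold higher.

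Coagulation genes rose in 18 of 30 cases and fell in 7 (median 0.64). F10, which encodes clotting factor X, was at 0.38 and 0.37 in WT and 3.76 and 3.77 in tg/tg, 10.5-fold higher (SE 0.0346, limma adjusted p = 1.41e-05), and the urokinase gene Plau rose 6.57-fold. In the protein C anticoagulant pathway the receptor gene Procr rose, while the activating cofactor gene Thbd (thrombomodulin) fell 4.70-fold, from 5.93 and 5.95 to 3.69 and 3.72, and Proc, the zymogen, by 2.19 on the log2 scale. The 3 genes of this short pathway thus did not move together.

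Regulators of G protein signalling held large changes of both signs, with 8 of 15 higher and 6 lower (median 0.45). Rgs16 was at -2.89 and -2.94 in WT and 2.2 on each tg/tg array, 34.7-fold higher (SE 0.0388, limma adjusted p = 1.41e-05), and Rgs1, a lymphocyte regulator of chemokine receptors, rose 20.0-fold. Rgs8, known from neurons, was at least 5.40-fold higher, and Rgs6, known from heart and brain, at least 7.94-fold lower. Among 43 receptor genes for transmitters and hormones 19 rose and 19 fell: the serotonin receptor gene Htr2b rose 7.02-fold and Htr7 was at least 3.02-fold higher, while the alpha-adrenergic receptor gene Adra1b fell by 2.67 on the log2 scale. Ion channel and aquaporin genes fell in 24 of 45 cases (53.3%, against 41.2% of all genes) and rose in 10 (median -0.28, or -0.27 with bounds). The potassium channel gene of activated lymphocytes and macrophages, Kcnn4, rose 7.52-fold, from -1.42 and -1.40 to 1.52 and 1.48.

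Genes that did not differ can be bounded as well as counted. For 2589 genes that did not pass the test, the 95% interval of the difference lay within 0.5 of 0 on the log2 scale. The 10 brightest of these were Rplp0, Rplp1, Rps18, Lyz2, Rps23, Rplp2, Rps20, Rps14, Rpl11 and Tmsb4x. They encode ribosomal proteins, lysozyme 2 of myeloid cells and the actin-binding thymosin beta 4. Lyz2 was at 8.09 and 8.13 in WT and 8.39 and 8.17 in tg/tg (log2 difference 0.17, SE 0.0872, limma adjusted p = 0.151). These are values of each gene's brightest probe: another Lyz2 probe was called higher, by 0.70 on the log2 scale, and another Rplp0 probe by 0.32.

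Different probes of a gene gave a check within these arrays. Of 4165 genes with 2 or more tested probes, 2530 had at least 2 probes past the threshold, and these pointed the same way for 2215 genes and in opposite ways for 315 (12.5%). Without WT replicate 1 or WT replicate 2 the number in opposite ways was 151 or 152. Arid5b, an adipogenesis cofactor gene, was lower by 1.86 with a probe and higher by 1.35 with another, and 6 genes with the largest such disagreement also included Dtl (-3.17 and 1.31), Frmd5 (-1.75 and 1.24), Wdr95 (-1.17 and 1.03) and Cdk17 (-0.98 and 1.14). Npr2, the receptor for C-type natriuretic peptide, was lower by 1.09 with each of 2 probes and higher by 1.99 with another. For these genes the arrays give no single direction.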

How the data were processed

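Lung RNA of 2 tg/tg and 2 WT samples on 4 arrays was analysed; the tg/wt arrays lay on another slide and entered only an alternative fit. Per the file headers, the deposited intensity values were extracted from the scans with Agilent Feature Extraction 9.5.3.1, background-subtracted and detrended within the array; the submitters' processing notes name version 9.1. Which version made the deposited intensities cannot be settled here. The deposited series table repeats the intensity left after background subtraction in each scanner file, unscaled between arrays.

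From these, log2 of the processed intensity minus the array's 75th percentile was computed. Of 41174 probes, 22951 were matched by accession to 16358 symbols of a RefSeq gene table (GRCm38), and 18223 were not and are not named. Of 26841 probes well above background on at least 2 of 4 arrays, 17904 had a symbol; control spots, outlier spots and 6 probes lacking a spot on an array were removed. Each of the 12762 genes was represented by its probe with the highest mean. The fit used limma 3.58.1 in R 4.3.3 (lmFit, eBayes and treat against a log2 difference of 1; 2 residual degrees of freedom, prior 1.85), with Benjamini-Hochberg adjustment over all genes and a threshold of 0.05, and was tested on simulated data. Figures used Python 3.11.15 and matplotlib 3.10.9. A bound divides the brighter group's mean by the dimmer group's, after each dim array's value is raised, where lower, to the least signal that array's probes had when well above background. Precision is limited by having 2 arrays per group.

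The comparison and the gene lists were chosen with earlier results of these data known, so list counts are descriptions, and no set test was run. The fatty acid oxidation list holds Pmp22, a myelin gene that fell, by oversight. Genes were named by rule: Tbx21; the 15 largest rises and falls measured on all 4 arrays without overlap; the 10 highest bounds in each direction; up to 3 rises and 3 falls per list; genes with probes called in opposite directions; and bright genes with a narrow interval around 0. Other list members are named after their values were seen. Replicate numbers did not pair the arrays: deviations of same-numbered arrays correlated at -0.0245. Alternatives covered scaling, background correction, source of values, filters, floor, probe choice, variance trend, arrays in the fit, replicate block and leaving out each array. Some genes are not reported here.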

Additional observations from a re-analysis of the deposited data

How the results depend on the processing

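Counts of genes higher, lower and more than 2-fold different stayed within 1.5 times the reported count under each setting tried, except that normexp background correction gave 720 genes more than 2-fold lower (1089 reported). With the replicate block, 4037 genes were higher and 5015 lower, and 1049 and 1043 passed the 2-fold test; the arrays share only a number. Leaving out an array gave 182 to 251 genes detected in tg/tg alone and 307 to 456 in WT alone. The lower ends cannot show stability. Leaving out an array of the detecting genotype returns 182 or 307 by construction, and leaving out an array of the other genotype can only raise the count. Genes whose probes were called in opposite directions numbered 151 to 283 (315 reported), lowest without WT replicate 1 and 152 without WT replicate 2. With the mean of a gene's probes in place of the brightest, the sign turned for Dlat (-0.24), Dtl (-0.93), Rpsa (-0.20), Sel1l (0.12), Srsf7 (-0.36), Stard4 (0.088) and Wdr95 (-0.072), since their probes disagree; Rps20 turned under quantile normalization (-0.12). The cause of the other shifts was not tested. Of 314 named genes and list members, 301 to 314 kept direction and side of the threshold per setting (266 of 266 with detection on all 4 arrays required). The median of all genes stayed between -0.06 and 0.02. Taking detection on at least 1 array of the higher group can by its construction return no other counts than 182 and 307. The median standard error was 0.0756 in the dimmest tertile and 0.0426 in the brightest.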
